A study of Homo sapiens with 6 samples.

Results

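Expression of 9 genes known as regulators or markers of naive pluripotency was followed in human induced pluripotent stem cell (hiPSC) aggregates: *ZFP42*, *DPPA3*, *DPPA5*, *TFCP2L1*, *NR5A2*, *TBX3*, *ESRRB*, *TFAP2C* and *PRDM14*. They were chosen by a fixed list of symbols, matched through GENCODE 44 to the Ensembl identifiers of the count files, which gave 9 of 19977 genes. The libraries came from NCRM-1, a wild type hiPSC line, grown from single cells for 4 days in suspension bioreactors. In 3 libraries the cells were in Essential 8 (E8), a defined medium that keeps hiPSCs undifferentiated, with 10 mg/ml polyethylene glycol (PEG) and 0.1 µg/ml heparin sodium salt (HS). The other 3 libraries were E8 control, and in both media 50% of the volume was exchanged on day 2. The treatment text of the labels names PEG and heparin for all 6 libraries, while the treatment field gives 3 of them as control, and the field was followed. By the labels each medium had 1 bioreactor, so the vessel and the medium cannot be told apart, and the p-values below measure the spread between libraries that may be samples of 1 vessel.

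Naive pluripotency is the state of the cells of the preimplantation epiblast, while hiPSCs kept in FGF2-containing media such as E8 are in the later, primed state. In mouse cells ESRRB, TFCP2L1, NR5A2 and TBX3 form part of a transcription factor network that maintains the naive state downstream of LIF and of low GSK3 activity. In human cells that network is built in part from other factors. TFAP2C keeps naive enhancers open, *DPPA3* and *DPPA5* mark naive cells, and *ZFP42* and *PRDM14* are also expressed in the primed state.

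The 6 libraries held 26991279 to 36185138 counts, and 8 markers of pluripotent cells (*POU5F1*, *SOX2*, *NANOG*, *LIN28A*, *DNMT3B*, *SALL4*, *TDGF1* and *L1TD1*) had medium means between 126.2 CPM (*NANOG* in E8 control) and 2239 CPM (*DNMT3B* in PEG and HS). CPM values are counts per 1000000 counts of a library, scaled by TMM factors between 0.994 and 1.006, and the spread between replicates was small, with a common biological coefficient of variation of 3.12%. Media were compared for 16505 genes by the quasi-likelihood method of edgeR, and a gene counted as called where its p, adjusted by Benjamini-Hochberg over these genes, was below 0.05. All p-values and fold changes below come from that fit unless another is named. All measurements are of bulk RNA, in which fewer cells of a type and less RNA per cell cannot be told apart.

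The 9 regulators did not move in one direction. *NR5A2*, *TFCP2L1* and *ZFP42* were higher in PEG and HS, by 1.57-fold, 1.49-fold and 1.08-fold. *TFAP2C* and *PRDM14* were lower, by 1.62-fold and 1.20-fold. *DPPA3*, *DPPA5*, *TBX3* and *ESRRB* did not pass the test. All 9 passed the filter on low counts. The 5 of 9 called genes stand beside 25.3% of all genes tested, of which 12.2% were higher and 13.1% lower. With so few genes, on a list chosen with earlier results of these data known, the share is a description of these 9. For 6 of the 9, 3 higher and 3 lower, no library of one medium fell within the range of the other, beside 39.3% of all genes (19.5% higher and 19.8% lower). The median log2 fold change of the 9 was -0.07 and that of all genes 0.0031. Against a change of 1.5-fold, 0 of the 9 passed edgeR's test, in which 1.6% of all genes did (0.182% higher and 1.42% lower), and 1 of the 9 had an unadjusted p under 0.05.

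**Figure D1:**
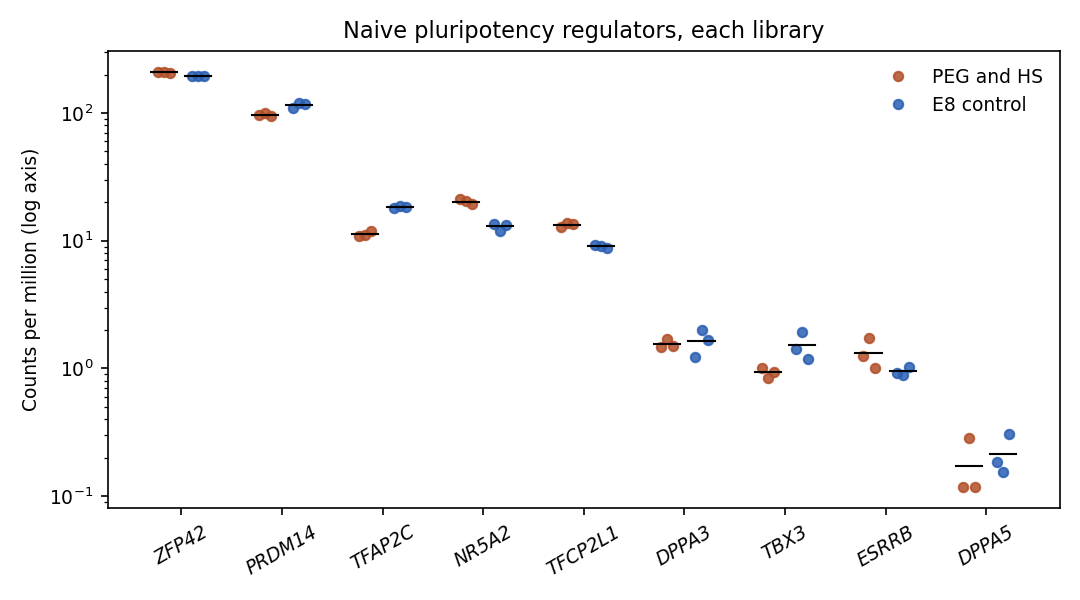
Level of the 9 regulators in each library in CPM (log axis), ordered by the E8 control mean; points are the 3 libraries of each medium and lines their means. *ZFP42* and *PRDM14* sit near 100 to 200 CPM in both media, and the points of the media are apart for *TFAP2C*, *NR5A2* and *TFCP2L1*.

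*NR5A2* (ENSG00000116833, chr1:200027614-200177420, plus strand, GRCh38) encodes an orphan nuclear receptor that can stand in for OCT4 in reprogramming. The PEG and HS libraries held 710, 574 and 654 counts, or 21.1, 20.3 and 19.3 CPM. The E8 control libraries held 362, 389 and 483 counts, or 13.42, 11.97 and 13.39 CPM. Each PEG and HS library was above each control library. The means were 20.2 ± 0.868 and 12.9 ± 0.825 CPM (SD, n = 3 each), a log2 fold change of 0.65 (SE 0.0642, 95% interval 0.51 to 0.78, adjusted p = 2.17e-06).

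*TFCP2L1* (ENSG00000115112, chr2:121216587-121285202, minus strand) encodes a CP2-family factor that acts downstream of LIF and STAT3 in mouse naive cells. It was counted 435, 390 and 456 times in PEG and HS, which is 12.9, 13.8 and 13.5 CPM. In E8 control it was counted 250, 294 and 316 times, which is 9.27, 9.05 and 8.76 CPM. The groups were again apart, and the lowest PEG and HS library was above the highest control library. Means were 13.4 ± 0.457 and 9.02 ± 0.256 CPM, with a log2 fold change of 0.57 (SE 0.0663, interval 0.43 to 0.71, adjusted p = 1.18e-05).

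*ESRRB* (ENSG00000119715, chr14:76310712-76501837, plus strand), the orphan receptor that is a core member of the mouse network, was counted far less. Its 42, 49 and 34 counts in PEG and HS were 1.245, 1.734 and 1.005 CPM, and its 25, 29 and 37 counts in E8 control were 0.927, 0.893 and 1.02 CPM. The third PEG and HS library lay within the range of the control libraries. The log2 fold change of 0.47 (SE 0.253) had an interval from -0.07 to 1.01 and an adjusted p of 0.203. The interval holds 0 and also holds the changes of *NR5A2* and *TFCP2L1*. An antisense RNA gene lies opposite to *ESRRB*, and how the counting treated strand is not given in the sources used here.

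*ZFP42* (ENSG00000179059, chr4:187995771-188005046, plus strand) encodes REX1, a zinc finger protein and a long-used marker of undifferentiated cells. Its PEG and HS libraries had 7118, 5942 and 7009 counts, or 211.1, 210.3 and 207.1 CPM. Its control libraries had 5262, 6316 and 7013 counts, or 195.0, 194.4 and 194.3 CPM. The groups did not overlap, and the control values lay within 1 CPM of each other, closer than the 2.49 CPM that counting alone would give. The rise of 7.65% (interval 3.61% to 11.8%) was small and passed the test (log2 fold change 0.11, SE 0.0259, adjusted p = 0.00684).

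**Figure D2:**
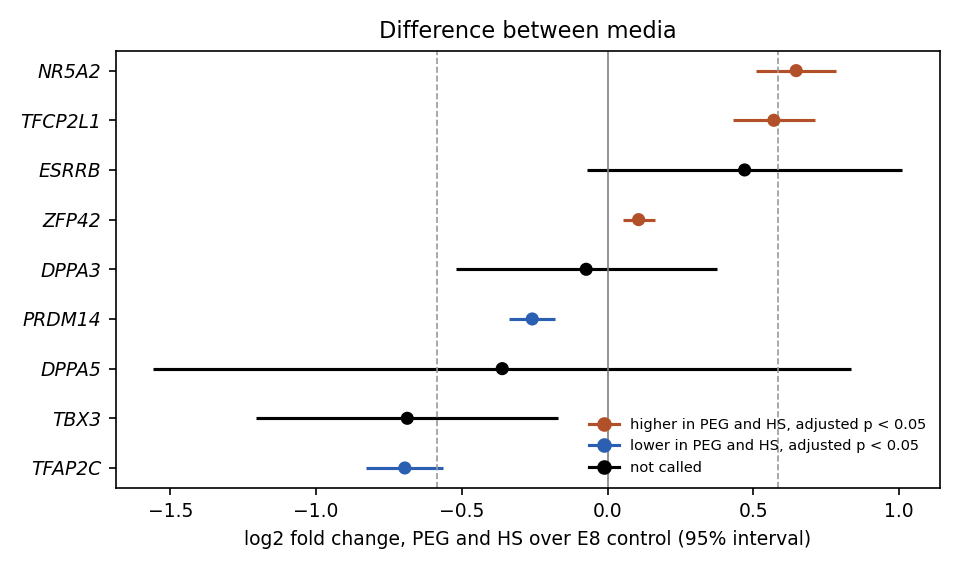
Log2 fold change of each regulator, PEG and HS over E8 control, with its 95% interval; colours mark the direction of called genes, black the genes not called, and the dashed lines a 1.5-fold change either way. The intervals of *DPPA5*, *ESRRB*, *TBX3* and *DPPA3*, with 37 to 307 counts in total, are the widest.

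The DNA just before the start sites of the 3 genes that rose, and of *DPPA5*, which was not called, is shown as a description. RefSeq (GRCh38.p14) gave windows of 300 bases, from 250 before to 50 after a start, for 6 of the 9 genes, with 9 windows in all. Windows for *TBX3*, *TFAP2C* and *PRDM14* were not used here. Each line gives the 250 bases before a start, 5′ to 3′ on the strand of the gene. Capitals mark matches to the AP-2 family letters GCCNNNGGC, searched on both strands. Only *ZFP42* and *DPPA5* had such matches. The windows of *DPPA3* and *ESRRB* and the first of *NR5A2* had none and are not printed. The *NR5A2* start is the second of its windows and lies inside the longer gene model (chr1:200042341-200042590). The others are at chr2:121285203-121285452 for *TFCP2L1*, chr4:187995521-187995770 for *ZFP42* and chr6:73354277-73354526 for *DPPA5*.
NR5A2: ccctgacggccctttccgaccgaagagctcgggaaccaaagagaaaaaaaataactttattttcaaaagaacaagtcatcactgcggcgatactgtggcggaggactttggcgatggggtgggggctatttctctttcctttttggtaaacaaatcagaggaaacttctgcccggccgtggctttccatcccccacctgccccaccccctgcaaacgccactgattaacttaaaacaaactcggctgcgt
TFCP2L1: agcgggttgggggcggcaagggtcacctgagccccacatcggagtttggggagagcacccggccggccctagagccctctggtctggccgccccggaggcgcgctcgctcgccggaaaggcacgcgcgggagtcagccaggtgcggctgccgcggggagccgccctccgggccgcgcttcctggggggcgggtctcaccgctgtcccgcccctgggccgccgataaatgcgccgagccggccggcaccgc
ZFP42: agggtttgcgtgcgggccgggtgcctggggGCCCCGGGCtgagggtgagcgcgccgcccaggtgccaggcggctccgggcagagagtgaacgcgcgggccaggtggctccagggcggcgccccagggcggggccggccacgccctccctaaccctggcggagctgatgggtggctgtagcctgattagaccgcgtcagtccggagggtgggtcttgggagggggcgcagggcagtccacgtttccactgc
DPPA5: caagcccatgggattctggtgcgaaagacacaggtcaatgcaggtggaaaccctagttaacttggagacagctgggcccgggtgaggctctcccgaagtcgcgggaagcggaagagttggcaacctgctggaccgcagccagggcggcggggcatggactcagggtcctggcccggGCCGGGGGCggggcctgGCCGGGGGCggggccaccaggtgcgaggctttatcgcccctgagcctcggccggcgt

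The *NR5A2* stretch had a GC content of 50.8% with 13 CpG sites, against 76.8% with 32 for *TFCP2L1*, 74.4% with 23 for *ZFP42* and 68.8% with 19 for *DPPA5*. The AP-2 letters occurred in 2 of the 9 windows and in 23.2% of the 35116 windows of all genes. In *ZFP42* the match GCCCCGGGC began 220 bases before the start. In *DPPA5* the match GCCGGGGGC occurred in 2 places, beginning 74 and 57 bases before it. None of the 9 windows held the octamer ATGCAAAT (in 1.77% of all windows), the orphan receptor letters TCAAGGTCA (0.353%) and TCAAGGCCA (0.31%), the T-box letters AGGTGTGA (0.98%) or the SOX-OCT composite motif (0.0057%). The octamer letters are part of the composite motif. A match of letters is a description and not a bound site.

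*TFAP2C* (ENSG00000087510, chr20:56629306-56639283, plus strand) encodes AP-2 gamma, a factor of naive cells, trophectoderm, amnion and germ cells, and had the smallest adjusted p of the 9. It was counted 369, 311 and 406 times in PEG and HS and 484, 610 and 660 times in E8 control. In CPM these were 10.94, 11.01 and 12 against 17.9, 18.8 and 18.3. The highest PEG and HS library was well below the lowest control library. The means of 11.3 ± 0.591 and 18.3 ± 0.420 CPM gave a log2 fold change of -0.70 (SE 0.0619, interval -0.83 to -0.56, adjusted p = 6.47e-07). Against a change of 1.5-fold its adjusted p was 0.505.

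*TFAP2A*, the paralog of *TFAP2C* that marks surface ectoderm, amnion and trophectoderm, was lower by more. Its counts were 30, 16 and 12 in PEG and HS and 161, 203 and 209 in E8 control. The means were 0.604 ± 0.269 and 6.003 ± 0.230 CPM, so the PEG and HS level was 9.86-fold lower (log2 fold change of -3.30, SE 0.204, adjusted p = 9.84e-09). For each 100 counts of *TFAP2C* there were 8.13, 5.15 and 2.96 of *TFAP2A* in PEG and HS, and 33.3, 33.3 and 31.7 in E8 control. No word of 31 bases in the *TFAP2C* transcripts occurred in those of another gene, *TFAP2A* included.

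**Figure D3:**
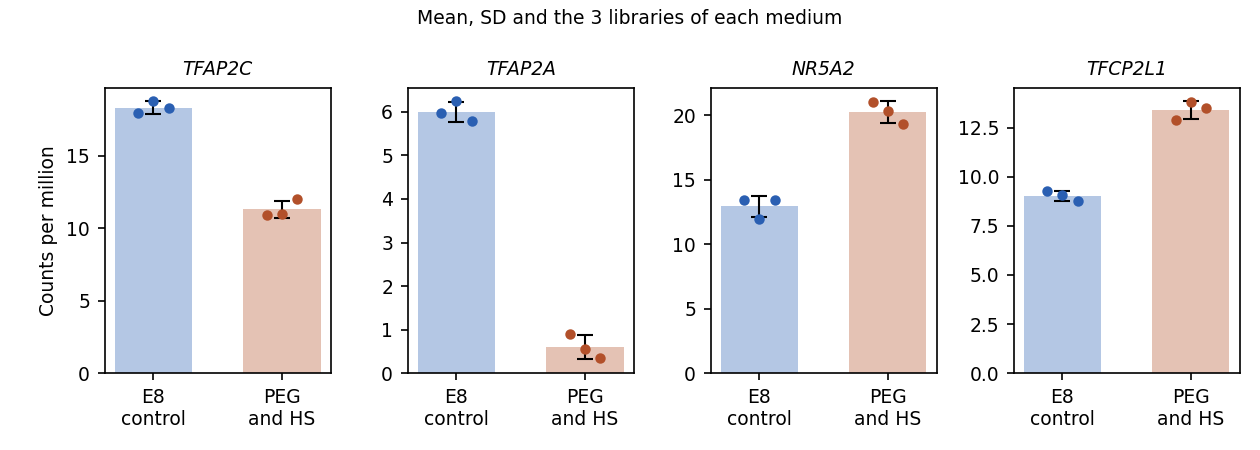
*TFAP2C*, *TFAP2A*, *NR5A2* and *TFCP2L1* in CPM; bars are means, error bars the SD and points the 3 libraries of each medium, on an axis that starts at 0 for each gene. Both AP-2 genes are lower in PEG and HS and the other pair is higher, with no overlap between media.

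Some markers of other cell types were also lower in PEG and HS. The 12 trophectoderm and amnion markers, which include *TFAP2A*, summed to 16.4 to 17.9 CPM in E8 control and to 7.77 to 7.998 CPM with PEG and HS. Of the 9 tested, 4 were lower (*TFAP2A*, *KRT7*, *GATA2* and *HAND1*) and 0 higher by edgeR. Limma-voom gave the same counts, while DESeq2 gave 3 lower and 0 higher. Of all genes tested, edgeR called 13.1% lower and 12.2% higher. *HAND1* had only 16 counts over the 6 libraries. At an unadjusted p under 0.05 edgeR gave 4 lower and 1 higher, *GABRP*, at 2.29 CPM in PEG and HS against 1.69 CPM in E8 control. *CGA* was at 0 in all libraries. *KRT7*, a simple keratin, had a log2 fold change of -0.92 (SE 0.112, adjusted p = 1.89e-05), and *GATA2* one of -1.23 (SE 0.242, adjusted p = 0.00147). The sum of 10 neuroectoderm markers was 580.1 to 619.9 CPM in PEG and HS, below the 797.6 to 829.3 CPM in E8 control. Of these 10 genes 9 were lower, beside 13.1% of all genes tested. The paper had already named *SOX1*, *OLIG3*, *LHX5* and *OTX2* of this list as lower in these data. The list was chosen with that known, so its share is a description and not independent support. *NES* held most of that sum and was 1.18-fold lower, at 542.8 against 642.8 CPM, while *LHX5* was 5.18-fold and *OTX2* 4.28-fold lower. The part of these cells in the level of *TFAP2C* was not tested.

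*PRDM14* (ENSG00000147596, chr8:70051651-70071693, minus strand) encodes a PR-domain protein that sustains pluripotency and germ cell specification. Its counts were 3256, 2811 and 3214 in PEG and HS and 2955, 3903 and 4253 in E8 control. The CPM values of 96.56, 99.48 and 94.97 all lay below the control values of 109.5, 120.1 and 117.9. *PRDM14* fell by 16.4% (interval -20.8% to -11.7%), from a mean of 115.8 ± 5.58 CPM to one of 97.0 ± 2.29 CPM (a log2 change of -0.26, SE 0.0367, adjusted p = 8.34e-05). *CBFA2T2*, a corepressor that partners PRDM14, was also lower (log2 fold change -0.17, SE 0.0436, adjusted p = 0.00953).

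*PRDM14*, *TFAP2C* and *DPPA3* also mark primordial germ cells. Of 6 other markers of those cells, 3 were near 0, with 2 counts of *SOX17* over the 6 libraries, 8 of *NANOS3* and 7 of *DDX4*. Of the 3 with enough counts, *DAZL*, which encodes an RNA-binding protein of germ cells, was at 1.72 CPM in E8 control and lower, at 0.284 CPM, with PEG and HS (a log2 change of -2.55, SE 0.307, adjusted p = 1.69e-05). *PRDM1* was lower as well, from 0.652 to 0.233 CPM (log2 fold change -1.47, adjusted p = 0.0122), while the receptor gene *KIT* was not called, at 39.3 against 41.6 CPM (log2 fold change -0.08, adjusted p = 0.180). The 6 germ cell markers outside the 9 regulators summed to 38.0 to 40.9 CPM in PEG and HS, compared with 43.1 to 45.4 CPM in E8 control, and *KIT* held nearly all of that sum.

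*TBX3* (ENSG00000135111, chr12:114670255-114684175, minus strand) encodes a T-box repressor of the mouse naive network. It had 34, 24 and 32 counts in PEG and HS, against 38, 63 and 43 in E8 control. The CPM values of 1.01, 0.849 and 0.946 were all below those of 1.41, 1.94 and 1.19. The log2 fold change was -0.69 (SE 0.242, interval -1.21 to -0.17). Its adjusted p of 0.0502 lay just over the threshold, and the choice of filter, scaling or library decided the call. Without E8 control replicate 2 the adjusted p was 0.261, and without E8 control replicate 3 it was 0.0301. An antisense RNA gene, *TBX3-AS1*, overlaps the locus.

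*DPPA3* (ENSG00000187569, chr12:7711433-7717559, plus strand) encodes STELLA, which protects DNA methylation marks in the early embryo. The values of 1.48, 1.70 and 1.51 CPM in PEG and HS, from 50, 48 and 51 counts, lay inside the control range of 1.223, 2.001 and 1.663 CPM, from 33, 65 and 60 counts. The log2 fold change of -0.07 (SE 0.210) had an interval from -0.52 to 0.37 and an adjusted p of 0.842. Of the 31-base words of *DPPA3* transcripts, 65.5% also occurred in transcripts of 11 other genes, so reads could have been shared with those copies and the level is uncertain.

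*DPPA5* (ENSG00000203909, chr6:73353063-73354276, minus strand), which encodes a small KH-domain protein of undifferentiated cells, was at the limit of detection. It had 4, 8 and 4 counts in PEG and HS, against 5, 5 and 11 in E8 control, or 0.119, 0.283 and 0.118 CPM against 0.185, 0.154 and 0.305 CPM. The log2 fold change of -0.36 (SE 0.560, adjusted p = 0.696) had an interval from -1.56 to 0.84, so the counts are compatible with falls and rises within these bounds.

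Levels of different genes were compared as TPM, in which counts are divided by transcript length and scaled to the same sum in each library. In PEG and HS *ZFP42* led at 183.9 ± 2.26 TPM, followed by *PRDM14* at 99.3 ± 2.44 TPM. *NR5A2* at 9.46 and *TFAP2C* at 9.19 TPM came next and their libraries overlapped. *TFCP2L1* at 3.35 and *DPPA3* at 3.30 TPM overlapped too. *ESRRB*, *DPPA5* and *TBX3* lay at 0.616, 0.611 and 0.459 TPM, and each overlapped its neighbour.

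In E8 control the order was *ZFP42* (167.2 TPM), *PRDM14* (116.1), *TFAP2C* (14.6), *NR5A2* (5.92), *DPPA3* (3.36), *TFCP2L1* (2.21), *DPPA5* (0.742), *TBX3* (0.726) and *ESRRB* (0.431), and of these neighbours only *DPPA5* and *TBX3* overlapped. *TFAP2C* was above *NR5A2* in every control library. With lengths of merged exons instead, *TFAP2C* was above *NR5A2* in PEG and HS as well, at 14.9 and 10.6 TPM.

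**Figure D4:**
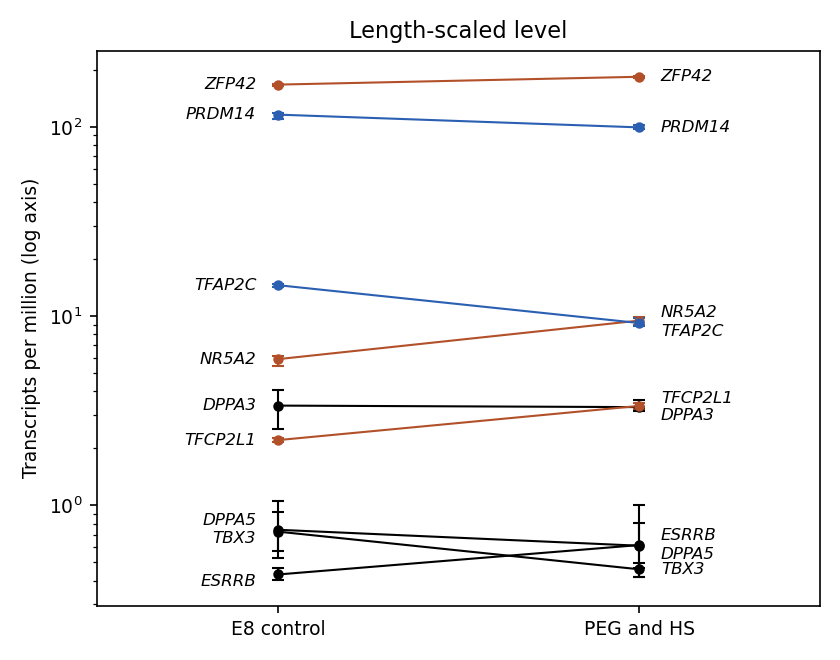
Level in TPM (log axis) of each regulator in E8 control and PEG and HS; points are means of 3 libraries, bars their range, and line colours as in the fold change plot. *ZFP42* and *PRDM14* stand above the other 7 genes, and the lines of *TFAP2C* and *NR5A2* cross.

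*ZFP42* and *PRDM14* together held 91.2% to 91.5% of the summed TPM of the 9 genes in PEG and HS, against 90.9% to 91.2% in E8 control. That sum was 311.5, 314.2 and 305.0 TPM in PEG and HS, against 305.5, 312.4 and 315.6 TPM in E8 control, so the media overlapped. Within it the share of *ZFP42* was 59.3% of the mean level in PEG and HS and 53.7% in E8 control, and that of *PRDM14* 32.0% and 37.3%. Levels were also ranked among all 19916 matched genes, which include genes without counts and others not tested. In PEG and HS *ZFP42* stood at percentile 96.0 of these and *PRDM14* at 91.96. There *ESRRB*, *DPPA5* and *TBX3* lay between percentiles 29.0 and 30.8, and their place among tested genes alone would be lower.

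Of 18 other genes of the naive state, 12 had enough counts. Of these 5 were higher and 4 lower, beside 12.2% higher and 13.1% lower of all genes tested. The median log2 fold change of the 12 was -0.16. The higher ones were *GBX2*, a homeobox factor of the mouse naive network (0.85, SE 0.0679, adjusted p = 2.01e-07), *GDF3*, a TGF-beta family ligand (0.41, SE 0.0550, adjusted p = 5.48e-05), and *DPPA4*, *DPPA2* and *SUSD2*. The lower ones were *KLF4*, a reprogramming factor (-0.86, SE 0.0892, adjusted p = 3.34e-06), *FGF4* (-1.67, SE 0.183, adjusted p = 6.17e-06), *ALPG* and *KLF5*. The 6 that were not tested (*KLF17*, *ARGFX*, *KHDC1L*, *KHDC3L*, *OLAH* and *TRIM60*) had 2 to 9 counts each over the 6 libraries. *SUSD2*, a surface marker of human naive cells, had 1378 counts and was at 8.02 CPM in PEG and HS against 6.39 CPM in E8 control (log2 fold change 0.32, adjusted p = 0.0126).

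The comparison lists for the primed state and for pluripotency in general were mixed in direction as well. Their calls stand beside 12.2% higher and 13.1% lower of all genes tested. Of 16 primed genes 5 were higher and 5 lower, led by *DUSP6*, a phosphatase induced by ERK signalling (log2 fold change 0.79, SE 0.0356), and *OTX2*, a homeobox factor of the primed epiblast and forebrain (-2.10, SE 0.0474). Of 10 shared pluripotency genes 6 were higher, with *NANOG* at 0.55 (SE 0.0269), and 3 lower, with *SOX2* at -0.59 (SE 0.0280). The lists overlap in part. *DPPA4* was counted both there and among the other naive genes, and *OTX2* among both the primed genes and the neuroectoderm markers.

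**Figure D5:**
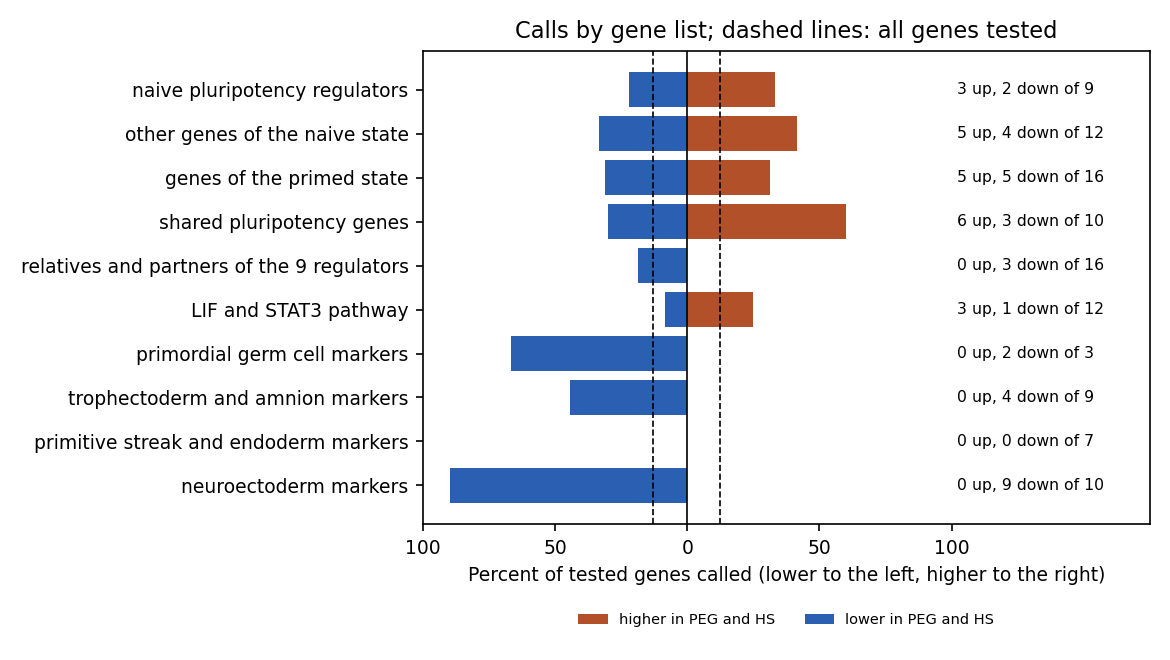
Percent of tested genes called in each gene list, lower in PEG and HS to the left and higher to the right, with the counts at the right edge; dashed lines mark the 13.1% lower and 12.2% higher of all genes tested. The naive regulators, the other naive genes and the primed genes have calls on both sides, and the trophectoderm and amnion and the neuroectoderm markers have calls on the lower side.

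Of 16 tested relatives and partners of the 9 regulators, 0 were higher and 3 lower (*TFAP2A*, *CBFA2T2* and *PRDM1*) by edgeR, by DESeq2 and by limma-voom, and at an unadjusted p under 0.05 edgeR gave 1 higher and 3 lower. The 3 of 16 stand beside 25.3% of all genes tested. *ESRRA*, the widely expressed relative of *ESRRB*, had a log2 fold change of 0.11 (adjusted p = 0.121). *TFCP2*, the close relative of *TFCP2L1*, was at 72.8 and 72.7 CPM (adjusted p = 0.964).

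In the LIF and STAT3 pathway, which drives *TFCP2L1* in mouse cells, 3 of 12 tested genes were higher and 1 lower. These 4 of 12 stand beside 25.3% of all genes tested, and 0 passed the test against a 1.5-fold change. The kinase gene *JAK1* (log2 fold change 0.22, SE 0.0389, adjusted p = 6.77e-04), the ligand gene *LIF* (0.44, SE 0.119, adjusted p = 0.0137) and *TYK2* (0.20, SE 0.0592, adjusted p = 0.0216) rose. *PIM1*, a kinase induced by STAT3, fell (-0.45, SE 0.0413, adjusted p = 1.01e-06). *STAT3* itself was at 0.02 (adjusted p = 0.745) and its feedback target *SOCS3* at -0.02 (adjusted p = 0.883). The calls of *LIF* and *TYK2* were each lost in 2 of the 6 fits that left out a library, with adjusted p-values of 0.0540 and 0.0707 for *LIF* and 0.0991 and 0.105 for *TYK2*.

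Markers of primitive streak and endoderm were low, at sums of 5.22 to 5.84 CPM in PEG and HS, compared with 6.15 to 6.21 CPM in E8 control. Of 7 tested, 0 were called by edgeR, DESeq2 or limma-voom, and at an unadjusted p under 0.05 edgeR gave 1 higher and 1 lower. The 0 of 7 stands beside 25.3% of all genes tested by edgeR. Counts over all libraries ran from 15 (*GATA6*) to 437 (*FOXA2*), so small changes could have been missed.

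Genes of the count files within 200 kb of the 9 genes, a distance chosen after the values were seen, numbered 26, of which 17 were tested. Of these 5 were higher and 1 lower, 35.3% beside 25.3% of all genes. *DPPA3* lies in a cluster with *GDF3*, *NANOG* and *SLC2A14*, all higher in PEG and HS (log2 fold changes 0.41, 0.55 and 0.26), while *DPPA3* itself was not called. *TRIML2* next to *ZFP42* was higher (0.27, adjusted p = 3.28e-04). The 3 tested neighbours of *TFAP2C* had adjusted p-values from 0.193 to 0.866. *CLASP1*, the neighbour of *TFCP2L1*, was at 116.6 and 115.5 CPM (log2 fold change 0.02).

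Over the 6 libraries the genes whose log2 CPM was most like that of *TFAP2C* were *FILIP1* (Pearson r 0.9991), *RRAGD* (0.9987) and *SFRP1* (0.9987) among 13115 genes. The points share the 2 media, so genes that differ between them rank high by construction. *FILIP1*, a filamin-binding protein gene, was at 17.5 CPM in E8 control against 5.57 CPM with PEG and HS. *SFRP1*, a secreted Wnt antagonist, was at 997.3 CPM in E8 control and lower, at 644.8 CPM, with PEG and HS.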

How the data were processed

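The values were raw counts per gene, 1 table per library, deposited by the authors for 3 libraries of PEG and HS and 3 of E8 control. Reads were from a stranded mRNA kit, trimmed with Trim Galore 0.6.7 and mapped to GRCh38 with STAR 2.6.1, per the labels. The counting tool, its use of strand and its rule for reads with several positions are not given in the sources used here. Of 19977 identifiers 19916 matched GENCODE 44, and 1799 genes had no count.

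The 16505 genes whose summed count reached 10 were fitted with edgeR 4.0.16 in R 4.3.3 (TMM, glmQLFit, glmQLFTest, no covariate). SE was taken as the size of the log2 fold change divided by the root of F. TPM used Ensembl canonical transcript lengths. Scripts were tested on simulated data. The exact permutation test of 3 against 3 cannot go below 0.1 and was not used. The members and all lists were chosen with earlier results of these data known. Named were the 9 members and, for each list and direction, up to 3 called genes with the smallest adjusted p and no library of the higher medium below 1 CPM, and the 3 genes closest in pattern to the member with the smallest adjusted p. Other genes were named after their values were seen. The alternatives were DESeq2 1.42.0, limma-voom (limma 3.58.1), other scalings and filters, a replicate block, a test against 1.5-fold and leaving out each library.

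No pair of replicates agreed within sampling noise (the chi-square over its degrees of freedom was 2.61 to 3.60). Counting error alone sets a limit of precision for genes with few counts.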

Additional observations from a re-analysis of the deposited data

How the results depend on the processing

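No called result changed direction, those of the listed examples included. The calls and directions of *ZFP42*, *TFCP2L1*, *NR5A2*, *TFAP2C* and *PRDM14* held under DESeq2, limma-voom, both other scalings, both other filters, the replicate block and each left-out library. Their log2 fold changes ranged from 0.10 to 0.12, 0.55 to 0.60, 0.59 to 0.68, -0.74 to -0.67 and -0.30 to -0.23. Tested against a 1.5-fold change, 264 genes were called in place of 4173, and 0 of the 9 regulators in place of 5, with *ZFP42* at 0.11, *TFCP2L1* at 0.57, *NR5A2* at 0.65, *TFAP2C* at -0.70 and *PRDM14* at -0.26. This test asks for a larger change by construction. Without 1 library 3114 to 3674 genes and 5 to 6 regulators were called, and the other settings gave 3367 to 4444 genes and 5 or 6 regulators.

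*TBX3* passed with DESeq2 size factors (log2 fold change -0.69, adjusted p = 0.0495), with no filter (-0.69, adjusted p = 0.0427) and with at least 1 CPM in 3 libraries (-0.69, adjusted p = 0.0261). Without 1 library it ranged from -0.84 to -0.47. It did not pass with DESeq2 (adjusted p = 0.106), limma-voom (0.0723) or library size alone (0.0526). *ESRRB* ranged from 0.24, without PEG and HS replicate 2, to 0.64 and was never called. The value of *DPPA3* ranged from -0.23 to 0.09 and that of *DPPA5* from -0.86 to 0.00093. DESeq2 gave *DPPA5* no adjusted p and the CPM filter removed the gene, so neither setting is in its range.

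The replicate numbers did not pair the libraries, since same-numbered libraries correlated at 0.0484, 0.0162 and 0.0516 in their deviations from the medium means. With the replicate block 4444 genes and 5 regulators were called and *TBX3* had an adjusted p of 0.0660. With merged exon lengths 5 of 9 ranks of the length-scaled order held in PEG and HS. Leaving out a library kept 7 to 9 ranks in E8 control and 5 to 7 with PEG and HS. The low counts of *DPPA3*, *DPPA5*, *TBX3* and *ESRRB*, at 4 to 65 per library, limit their precision.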
